A study of Homo sapiens with 6 samples.

Results

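The genes described here move iron into the cell, store it, release it and recover it from haem, and they were measured in SH-SY5Y cells given the herbicide atrazine or its vehicle. The 10 genes were listed by role: TFRC, SLC11A2 and STEAP3 for uptake, FTH1, FTL and NCOA4 for storage and release, ACO1 and IREB2 for control, and HMOX1 and HMOX2 for haem breakdown. All probes that carried one of these symbols in the platform annotation were taken, which gave 9 probes of 8 genes, out of 22184 probes on the array and 16578 named genes. No probe carried the symbol FTH1 or IREB2 in the annotation used here, so these 2 of the 10 genes have no value below. STEAP3 had 2 probes and each of the other genes 1.

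Gene expression was measured on 6 Illumina bead arrays, 3 of RNA from cells treated with atrazine, a triazine herbicide, and 3 of RNA from cells given dimethyl sulfoxide (DMSO), the vehicle. SH-SY5Y is a human neuroblastoma cell line, cloned from the SK-N-SH line, with features of sympathetic nerve precursors, and all cells were grown in DMEM/F12 with fetal bovine serum. Neither dose nor exposure time is stated in the sources used here. Replicates are numbered in the labels without saying whether they were cultured separately. The p-values therefore speak of the scatter among these arrays, and that scatter may be technical.

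Iron reaches most cells bound to transferrin, which the transferrin receptor (TFRC) carries into endosomes, where STEAP3 reduces the iron and DMT1 (SLC11A2) moves it into the cytosol. Ferritin, a shell of heavy (FTH1) and light (FTL) chains, stores what is not used, and NCOA4 takes ferritin to the lysosome when iron is needed. The iron regulatory proteins IRP1 (ACO1) and IRP2 (IREB2) bind stem-loops called iron-responsive elements: when iron is low they hold back translation of ferritin and protect the mRNA of TFRC from decay. Haem oxygenases open the haem ring and free its iron, HMOX1 as the inducible form and HMOX2 as the constitutive one.

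The iron-responsive element is the sequence feature that ties these genes together, and it is shown here for the transcripts whose element lay in the bases available. RefSeq promoter windows (GRCh38.p14, 250 bases before to 50 after a gene's start) were found for 8 of the 10 listed genes. FTH1 and HMOX1 had no window and were not searched, so nothing is said of an element in them. They were searched for a C, 5 stem bases, the loop CAGTGN and 5 bases that pair with the stem, G-T pairs allowed. Of 35116 windows, 8 held this form on the transcript strand within the 50 bases after the start (0.0228%), and 76 held it on either strand anywhere (0.216%). Among those 8 were FTL, the only searched gene of the list with a match on the transcript strand, and ALAS2. ALAS2 is the erythroid enzyme that starts haem synthesis, and its translation is under the same control as that of FTL. Both are printed 5′ to 3′ with the loop in capitals, FTL from chr19:48965339-48965357 on the plus strand and ALAS2 from chrX:55030947-55030965 on the minus strand.
FTL: tgcttcaaCAGTGTttgga
ALAS2: ttcgtcctCAGTGCagggc
The elements of TFRC and SLC11A2 lie at the other end of the transcript, outside these windows.

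The 250 bases before the start of TFRC and of FTL are shown because these genes had the largest fall and the largest rise among the 6 tested probes of the listed genes. Capitals mark TATAAA, the TATA box, and ACGTG, the core bound by hypoxia-inducible factors and part of the E-box CACGTG, on either strand (CACGT is ACGTG on the other strand). The antioxidant element TGACNNNGC was also searched on both strands and was in neither window. In windows of this length, TATAAA was found in 10.7%, ACGTG in 18.5% and TGACNNNGC in 10.9% of all 35116. TFRC is from chr3:196082091-196082340 on the minus strand and FTL from chr19:48965059-48965308 on the plus strand.
TFRC: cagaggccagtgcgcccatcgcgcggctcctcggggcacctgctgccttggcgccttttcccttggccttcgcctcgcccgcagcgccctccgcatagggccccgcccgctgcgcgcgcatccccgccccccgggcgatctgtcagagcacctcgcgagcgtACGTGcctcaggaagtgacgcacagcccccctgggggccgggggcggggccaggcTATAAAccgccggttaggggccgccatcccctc
FTL: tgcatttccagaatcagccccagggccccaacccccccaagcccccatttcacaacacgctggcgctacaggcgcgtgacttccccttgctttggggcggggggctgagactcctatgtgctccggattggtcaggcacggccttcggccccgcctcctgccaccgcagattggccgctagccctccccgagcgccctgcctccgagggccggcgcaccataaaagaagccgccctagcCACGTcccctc
These matches describe letters and do not show that a factor binds.

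The 2 groups of arrays differed widely, and this is the setting of every value below. Mean raw intensity ran from 235 to 311 on the atrazine arrays and from 532 to 939 on the DMSO arrays, and 43.6% to 52.0% of probes were above background (detection p under 0.05) in atrazine against 58.9% to 59.8% in DMSO. Levels are given as log2 intensity after background correction and quantile normalization, which gives all arrays one distribution. Of 12969 probes tested, 8734 passed a limma adjusted p of 0.05, which is 67.3%, with 3597 higher and 5137 lower in atrazine. With each array scaled only to a common median, 1979 were higher and 8880 lower, so rises made up 18.2% of the calls in place of 41.2%. The median log2 change of all tested probes was -0.18 after quantile normalization, -0.90 after median scaling, -0.12 after scaling to housekeeping genes and -1.61 with no scaling. The housekeeping genes used for scaling were not steady themselves, with changes of -0.71 to 0.97 after quantile normalization. Of 16 housekeeping probes 7 passed, 3 higher and 4 lower (43.8%, beside 67.3% of all). In the fit with no scaling, the tested probes of the listed genes all had the same SE (0.355). Its p-values therefore do not measure a probe's own scatter. Atrazine replicate 2 stood apart, correlating at 0.968 and 0.963 with replicates 1 and 3, which correlated at 0.994 with each other, while DMSO arrays correlated at 0.992 to 0.995.

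Of the 9 probes, 3 moved past the threshold: TFRC and NCOA4 fell and FTL rose in atrazine-treated cells. Of the 9, 6 were tested (above background on all 3 arrays of at least 1 group), and 3 of these 6 passed, beside 67.3% of all probes tested. That is 1 of 6 higher, beside 27.7% of all, and 2 of 6 lower, beside 39.6%. The groups did not overlap in 5 of the 6, beside 75% of all. The median change of the 6 was 0.13, beside -0.18 for all. Under median scaling all 6 passed (83.7% of all probes), 1 higher (15.3%) and 5 lower (68.5%). Under housekeeping scaling 4 passed (72.2%), 1 higher (32.8%) and 3 lower (39.3%). With no scaling 5 passed (79.8%), 0 higher (2.61%) and 5 lower (77.2%). With all 9 probes tested and no detection filter 5 passed (47.8%), 3 higher (22.4%) and 2 lower (25.4%).

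**Figure D1:**
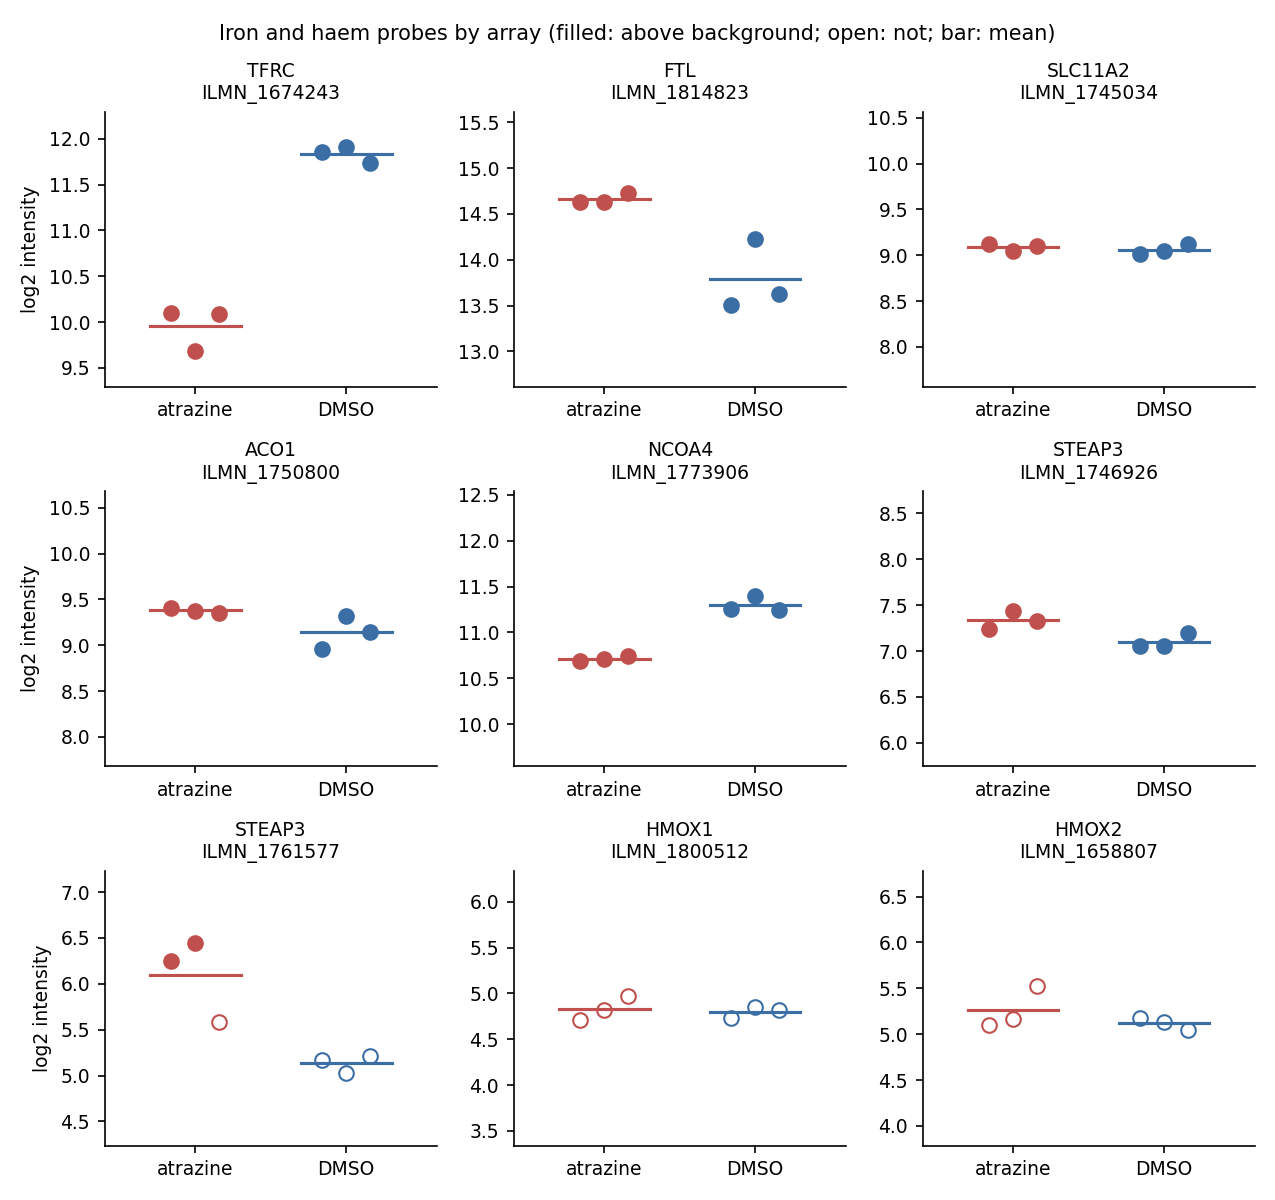
Normalized log2 intensity of the 9 probes on each array (y axes span 3 log2 units), atrazine left and DMSO right, with a bar at each group's mean; filled points were above background and open points were not. TFRC and NCOA4 sit lower and FTL higher in atrazine, and no array was above background for HMOX1 or HMOX2.

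Among the uptake genes the receptor fell, while the reductase and the endosomal transporter did not pass the test after quantile normalization. TFRC (probe ILMN_1674243) read 10.10, 9.69 and 10.09 on the atrazine arrays and 11.86, 11.91 and 11.73 on the DMSO arrays. All 3 atrazine values lay below all 3 DMSO values, with a gap of 1.64 between the nearest arrays. The log2 change was -1.87 (SE 0.14, 95% interval -2.20 to -1.55, limma adjusted p = 3.56e-05, n = 3 each), a level 3.67-fold lower in atrazine. In bulk RNA, fewer cells carrying a transcript and less of it per cell cannot be told apart.

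TFRC lay among the strongest falls on the array. A lower log2 change was found for 1.2% of the tested probes, and 3.03% of them passed with a fall of 3-fold or more. Raw intensity, before any correction, was 527, 449 and 746 in atrazine, against 5621, 9405 and 4697 in DMSO. In order of brightness TFRC was probe 1492, 2041 and 1503 of 22184 in atrazine and probe 313, 300 and 353 in DMSO, and this order does not depend on scaling. The fall was -2.90 under median scaling, -2.13 under housekeeping scaling and -3.61 without scaling, each past the threshold. Without atrazine replicate 2, whose TFRC value was the lowest, it was -1.71 (adjusted p = 2.61e-07).

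STEAP3, the endosomal ferrireductase, had 2 probes annotated to different transcripts, both with higher normalized values in atrazine; 1 did not pass and the other could not be tested. ILMN_1746926 read 7.24, 7.43 and 7.33 in atrazine and 7.06, 7.06 and 7.19 in DMSO, groups that just failed to overlap (gap 0.05). Its log2 change was 0.23 (SE 0.10, 95% interval -0.01 to 0.47, limma adjusted p = 0.076). It turned to -0.61 under median scaling (adjusted p = 0.0011) and to -1.32 with no scaling. ILMN_1761577 read 6.25, 6.44 and 5.58 in atrazine and 5.16, 5.03 and 5.21 in DMSO, and was above background on 2 atrazine arrays and 0 DMSO arrays. It therefore stayed out of the test. Its raw intensities overlapped, at 90.7, 105 and 93.5 in atrazine and 81.8, 107 and 85.2 in DMSO.

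SLC11A2, which encodes the divalent metal transporter DMT1, read 9.12, 9.05 and 9.10 in atrazine and 9.01, 9.05 and 9.12 in DMSO, fully overlapping. The log2 change was 0.03 (SE 0.09, limma adjusted p = 0.81), with a 95% interval of -0.19 to 0.24, which leaves room for a change of up to 1.18-fold. Other scalings gave a fall. Raw intensity was 290, 309 and 403 in atrazine against 920, 1649 and 880 in DMSO, and the change was -1.19 under median scaling (adjusted p = 5.88e-05), -0.41 under housekeeping scaling (adjusted p = 0.014) and -1.90 with no scaling. Its brightness order was alike in both groups, 2989, 3125 and 3031 in atrazine and 3197, 3119 and 2982 in DMSO.

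**Figure D2:**
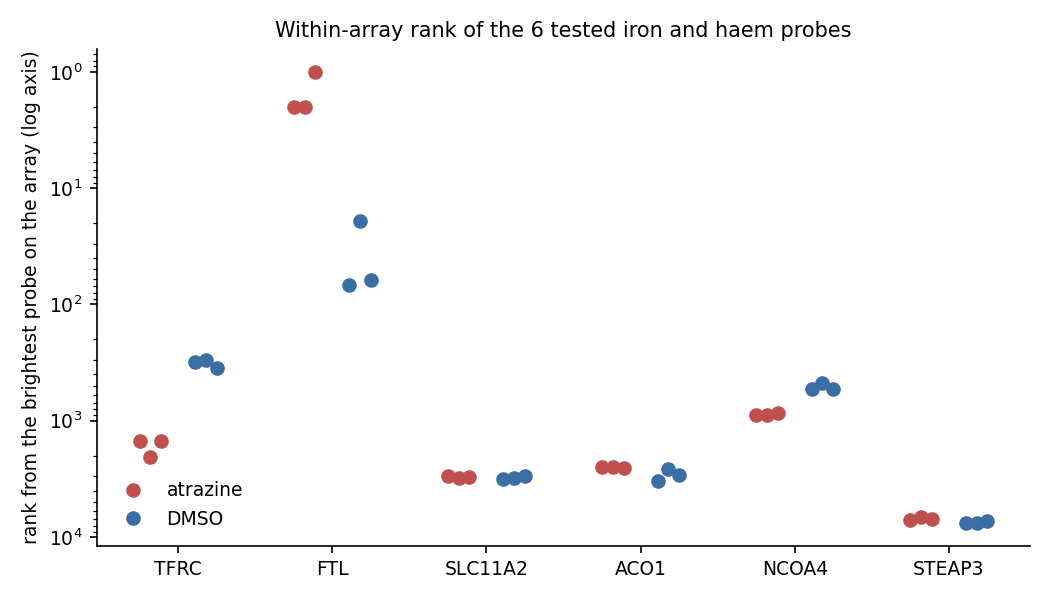
Rank from the brightest probe on each array (log axis, brightest at the top) for the 6 tested probes, 3 atrazine arrays left and 3 DMSO arrays right of each gene. FTL was probe 1 or 2 in atrazine and 19 to 68 in DMSO, while TFRC went the other way, at 1492 to 2041 in atrazine and 300 to 353 in DMSO.

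Storage and release genes moved in opposite directions, the ferritin light chain up and its lysosomal receptor down. FTL (ILMN_1814823) read 14.63, 14.63 and 14.72 in atrazine and 13.51, 14.23 and 13.62 in DMSO, without overlap. The log2 change was 0.87 (SE 0.19, 95% interval 0.44 to 1.31, limma adjusted p = 0.0046), a level 1.83-fold higher in atrazine, and 84.7% of all tested probes had a lower log2 change. A rise of 1.5-fold or more that passed was found in 20.9% of them. FTL was the second brightest probe on atrazine arrays 1 and 2 and the brightest on array 3, while it ranked 68, 19 and 62 in DMSO. At the top of the array quantile normalization sets the value by rank, so the SD of 0.05 in atrazine is bounded by ranks 1 and 2. In DMSO the SD was 0.39.

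Raw intensity of FTL was 21763, 25567 and 26229 in atrazine and 15578, 25039 and 16223 in DMSO, so the groups overlapped before normalization through DMSO replicate 2, the brightest array. The rise was 1.12 under median scaling and 1.89 under housekeeping scaling, both past the threshold, and 0.40 with no scaling, which did not pass (adjusted p = 0.28). Without DMSO replicate 2 it was 1.21 and without atrazine replicate 2 it was 0.77, past the threshold in both cases. Ferritin genes have processed pseudogenes, and whether this probe also binds their transcripts was not tested.

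NCOA4, the receptor that delivers ferritin to lysosomes (ILMN_1773906), read 10.69, 10.71 and 10.75 in atrazine and 11.26, 11.39 and 11.24 in DMSO. The groups were tight and well apart, with a gap of 0.50 between the nearest arrays. The log2 change was -0.58 (SE 0.09, 95% interval -0.81 to -0.36, limma adjusted p = 0.0012), a level in atrazine 0.667 times that in DMSO. Of all tested probes, 28.8% had a lower log2 change. NCOA4 fell under each scaling, by -1.66 under median scaling, -0.89 under housekeeping scaling and -2.38 with none, and was -0.57 without atrazine replicate 2.

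The one control gene measured, ACO1 (ILMN_1750800), which encodes IRP1 and acts as cytosolic aconitase when it carries an iron-sulfur cluster, did not pass. It read 9.41, 9.38 and 9.36 in atrazine and 8.96, 9.32 and 9.14 in DMSO. Atrazine values were nearly equal and only just above the highest DMSO value (gap 0.04). The log2 change was 0.24 (SE 0.12, 95% interval -0.03 to 0.51, limma adjusted p = 0.10), which became 0.33 and passed without DMSO replicate 2 (adjusted p = 0.048). It turned to -0.99 under median scaling (adjusted p = 5.75e-04), -0.22 under housekeeping scaling (adjusted p = 0.23) and -1.71 with no scaling.

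Neither haem oxygenase was above background on any of the 6 arrays. HMOX1 (ILMN_1800512), the form induced by oxidants and haem, had raw intensities of 49.8, 56.4 and 72.2 in atrazine and 56.2, 90.5 and 66.4 in DMSO, with detection p-values of 0.316 to 0.867 and 0.456 to 0.798. HMOX2 (ILMN_1658807), the constitutive form, had 65.7, 71.1 and 91.8 in atrazine and 82.3, 116 and 78.0 in DMSO. Its detection p-values came closer, 0.0692 to 0.233 in atrazine and 0.0862 to 0.182 in DMSO. These probes give no level and no fold in either group, and a change below the array's detection limit cannot be seen.

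**Figure D3:**
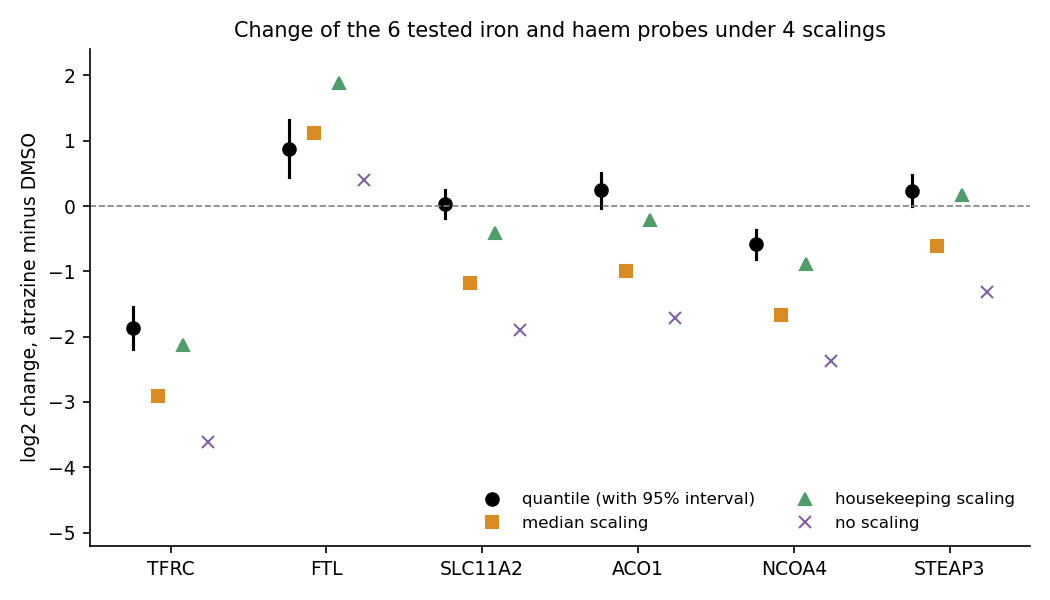
Log2 change (atrazine minus DMSO, y axis) of the 6 tested probes under 4 scalings of the arrays, with the 95% interval for quantile normalization. TFRC and NCOA4 lie below 0 and FTL above 0 under each scaling, while SLC11A2, ACO1 and STEAP3 change sign.

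Further genes of the pathway were read from 4 lists of 59 genes, of which 55 had a probe. Of their 64 probes 41 were tested, and 24 passed, 10 higher and 14 lower (58.5%, beside 67.3% of all probes tested), with a median change of -0.22, beside -0.18 for all. Of the 41, 32 were above background on all 6 arrays, and the other 9 entered the test through 1 group. Under median scaling 7 were higher and 29 lower, where 15.3% and 68.5% of all probes were.

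Of 25 probes for iron transport, export and regulation, 11 were tested; 3 rose, 5 fell and 3 did not pass (median -0.35). The share called was 72.7%, beside 67.3% of all probes. Among the falls, TFR2, the second transferrin receptor, was detected on 0 atrazine arrays and entered the test through the DMSO arrays alone. Its DMSO mean (5.85) was above the detection floor of atrazine arrays 1 and 3 (5.76 and 5.68) but under that of array 2 (6.25). The DMSO mean less the mean of the 3 floors was -0.045, so no fold can be given. MCOLN1, a lysosomal channel that passes iron, read 6.16, 6.47 and 6.37 in atrazine and 7.60, 7.56 and 7.66 in DMSO, a change of -1.27 (SE 0.11, limma adjusted p = 7.7e-05). CYBRD1, a ferric reductase, read 6.96, 7.19 and 6.71 in atrazine and 5.40, 5.71 and 5.88 in DMSO, a rise of 1.29 (SE 0.17, limma adjusted p = 4.49e-04). PCBP1, a chaperone that loads iron into ferritin, fell by 0.59 on the log2 scale. LCN2, a siderophore-binding protein, was detected on the 3 atrazine arrays and on 0 DMSO arrays, and entered the test through the atrazine arrays alone. Its bound on the quantile-normalized scale was a rise of at least 1.63-fold. Raw intensities of LCN2 overlapped, at 85.4, 104 and 96.6 in atrazine and 85.1, 115 and 78.0 in DMSO. The iron exporter SLC40A1, its hormone HAMP, transferrin (TF), HFE and ceruloplasmin (CP) were above background on 0 of 6 arrays. MCOLN1 and PCBP1 fell under each scaling, while CYBRD1 (0.27) and LCN2 (0.39) did not pass with no scaling.

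Of 6 tested probes for mitochondrial iron, 1 rose, 3 fell and 2 did not pass (median -0.51), a share called of 66.7%, beside 67.3% of all. ABCB10, an inner membrane transporter needed for haem synthesis, changed by -1.12 (SE 0.22, limma adjusted p = 0.0028). ABCB8, a mitochondrial transporter, was detected on 0 atrazine arrays and on 3 DMSO arrays, and entered the test through the DMSO arrays alone. Its bound on the quantile-normalized scale was a fall of at least 1.19-fold, though the change turned to 0.12 (not past) under housekeeping scaling. The bound rests on atrazine arrays 1 and 3, whose detection floors (5.76 and 5.68) lay under the DMSO mean of ABCB8 (6.14). The floor of array 2 (6.25) lay above that mean, so this array could not show a fall. CISD2, an iron-sulfur protein of the outer membrane and ER, changed by -0.31 (adjusted p = 0.020), a call lost without DMSO replicate 1 (0.055) or 3 (0.053). SLC25A37, mitoferrin-1, the mitochondrial iron importer, rose by 0.86 (SE 0.17, adjusted p = 0.0036) but turned to -0.26 (not past) under median scaling and -0.97 with no scaling.

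Of 11 tested probes for haem synthesis 2 rose, 4 fell and 5 did not pass (median -0.01), the falls being UROS, UROD, PPOX and FECH. The share called was 54.5%, beside 67.3% of all. FECH, which inserts iron into the porphyrin ring as the last step, read 6.52, 6.60 and 6.58 in atrazine and 7.779, 8.004 and 7.875 in DMSO, a change of -1.32 (SE 0.10, limma adjusted p = 4.205e-05). UROD changed by -0.68 and UROS, the enzyme before it, by -0.67. These 3 falls kept their direction and passed under each scaling. CPOX, which follows UROD, gave -0.01 (adjusted p = 0.94).

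The first enzyme of the path is made from either of 2 genes. ALAS2, the erythroid form whose stem-loop is printed above, read 6.30, 6.90 and 6.09 in atrazine and 5.05, 5.09 and 5.01 in DMSO. It was detected on 3 atrazine arrays and 0 DMSO arrays, a rise of at least 2.14-fold on the quantile-normalized scale (limma adjusted p = 7.22e-04), and it entered the test through the atrazine arrays alone. Its raw intensities overlapped, at 92.0, 122 and 109 in atrazine and 75.4, 112 and 76.5 in DMSO. The log2 change of 1.38 was 0.77 with no scaling, 0.78 with no background correction and 0.84 on the authors' processed values. Each passed the threshold, but with the same detection filter, so these passes are not separate support. With no scaling the SE of ALAS2 was the same 0.355 as for the listed genes' probes. ALAS1, the form of other tissues, gave 0.12 (adjusted p = 0.66) on the probe that was tested. Probes of HBA1, HBB, HBG1 and HBG2 were above background on 0 of 6 arrays. Of the other erythroid probes tested, KLF1 rose by 0.56 (adjusted p = 0.0062) and EPOR by 0.37 (adjusted p = 0.015) on the quantile-normalized scale. Raw means in atrazine and DMSO were 96.8 and 116 for KLF1, and 155 and 307 for EPOR, lower in atrazine for both. Neither was followed under the other scalings. Across the 8 erythroid probes, ALAS2 among them, the summed level was 367 to 417 in atrazine and 235 to 258 in DMSO, with 2 to 4 and 2 to 3 probes above background. The part of these markers in the ALAS2 result was not tested.

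Haem transport and control genes held the largest rise of the 4 lists. Of 13 tested probes 4 rose, 2 fell and 7 did not pass (median -0.03), a share called of 46.2%, beside 67.3% of all. They also held the largest fall of the 4 lists, HEBP2, a relative of the haem-binding protein HEBP1. It read 6.70, 5.22 and 6.95 in atrazine, where array 2 was not above background, and 8.02, 8.42 and 8.21 in DMSO, a change of -1.93 (SE 0.42, limma adjusted p = 0.0047). HEBP2 entered the test through the DMSO arrays alone, and its change was not followed under the other scalings. POR, which passes electrons to haem oxygenases and cytochromes P450, read 9.98, 9.86 and 9.63 in atrazine and 7.88, 7.50 and 7.83 in DMSO, a rise of 2.09 (SE 0.15, limma adjusted p = 2.87e-05). FLVCR1, known as a haem exporter, read 9.04, 9.34 and 9.14 in atrazine and 7.81, 7.81 and 7.74 in DMSO, a rise of 1.39 (SE 0.11, adjusted p = 4.70e-05). Under median scaling POR stayed past the threshold at 0.98 while FLVCR1 did not (0.27, adjusted p = 0.083), and with no scaling POR gave 0.27 and FLVCR1 turned to -0.44, neither past. HEBP1, a haem-binding protein, rose by 0.94 but turned to -0.10 under median scaling and -0.81 with no scaling. NR1D1, a nuclear receptor that binds haem, rose by 0.83 and gave -0.11 with no scaling.

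**Figure D4:**
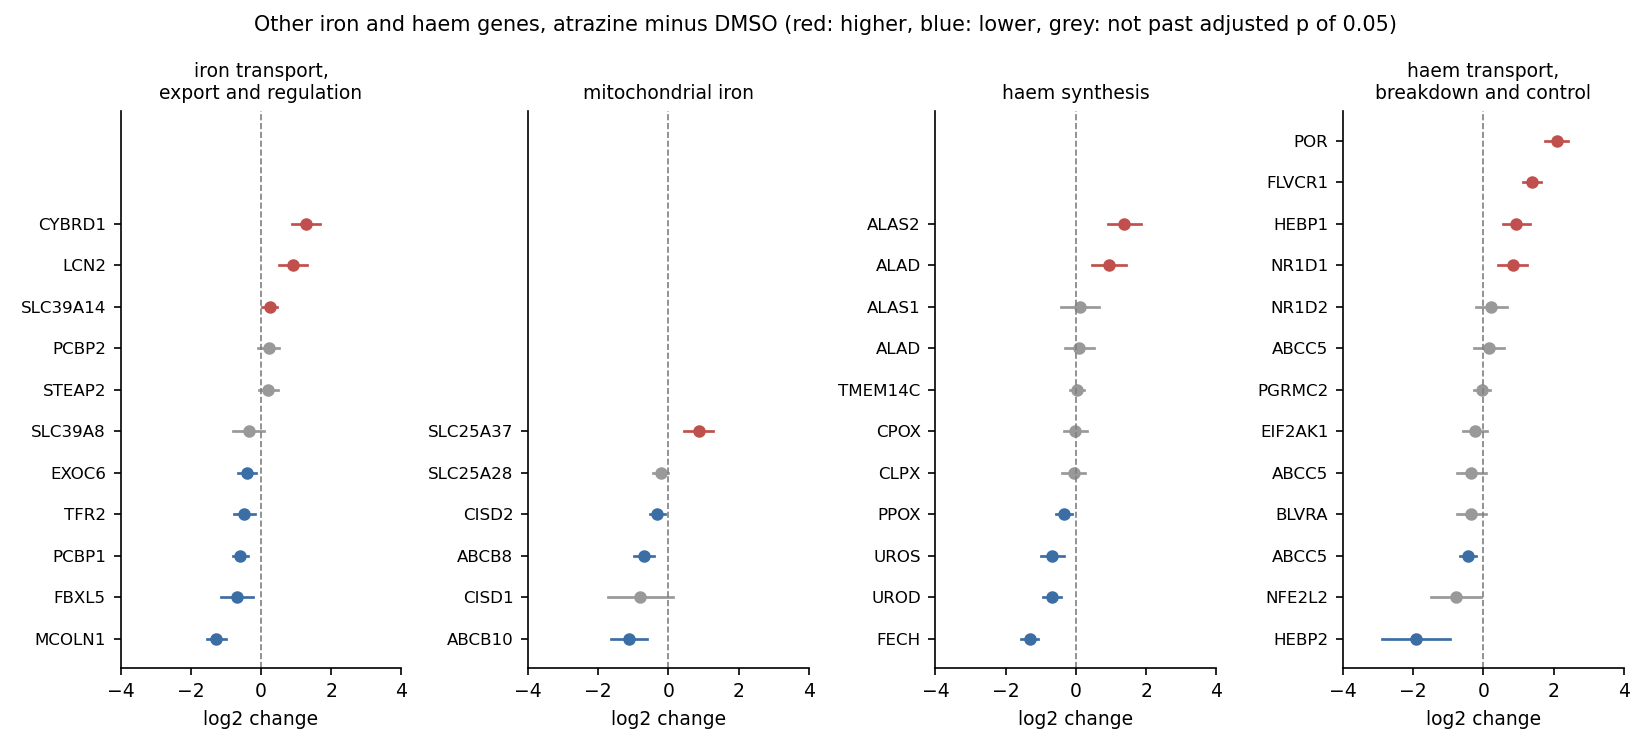
Log2 change (atrazine minus DMSO, x axis) with 95% interval for every tested probe of the 4 lists, red where higher in atrazine, blue where lower and grey where the adjusted p was 0.05 or more. The 4 largest rises are POR (2.09), FLVCR1 (1.39), ALAS2 (1.38, with DMSO below background) and CYBRD1 (1.29), and the haem synthesis falls are FECH, UROD, UROS and PPOX.

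Cell identity was checked against markers. Of 11 sympathoadrenal probes 10 were above background on all 6 arrays, HAND2 being the exception, and their summed level was 32590 to 33670 in atrazine and 49401 to 54771 in DMSO. Of the 10 tested, 7 fell, 1 rose (TH) and 2 did not pass, a share called of 80%, beside 67.3% of all probes tested. TH rose on the quantile-normalized scale, while its raw intensities overlapped, at 100, 106 and 124 in atrazine and 105, 153 and 99.6 in DMSO. Of 13 macrophage probes 2 to 3 were above background in atrazine and 0 to 1 in DMSO, with summed levels of 467 to 517 and 195 to 207. AIF1 and PTPRC rose in atrazine, on 1 probe each, which entered the test through the atrazine arrays alone. Raw means in atrazine and DMSO were 204 and 75.6 for that AIF1 probe, and 94.1 and 95.9 for that PTPRC probe. Their other probes were not tested. CD68 was above background on 0 atrazine and 2 DMSO arrays and was not tested. CD14, CD163, CSF1R, ITGAM, MRC1 and TYROBP were above background on 0 of 6 arrays. Of 8 hepatocyte probes 1, of SERPINA1, was above background on each array, with sums of 279 to 368 in atrazine and 137 to 158 in DMSO. This probe was the 1 tested and rose by 1.86, with raw means of 174.5 in atrazine and 140.3 in DMSO. Of 12 mesenchymal probes 6 were above background in atrazine and 7 in DMSO, with sums of 8195 to 9618 and 5829 to 6979. The 8 tested all passed, 6 higher and 2 lower, a share called of 100%, beside 67.3% of all. Of the 12, 5 were above background on all 6 arrays. The part of these markers in the iron results was not tested.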

How the data were processed

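The authors deposited raw signal intensity for 22184 Illumina probes on 6 arrays, with a detection p-value beside each value per the file headers, and a second table of processed intensity, whose median was 111.5 on every array. Per the labels' protocols, TRIzol RNA was turned into biotinylated cRNA. Scanner software and chip layout are not given in the sources used here.

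From the raw values, limma 3.58.1 (in R 4.3.3) gave normalized levels: normexp background correction inferred from the detection p-values, an offset of 16, log2 and quantile normalization (neqc). Of the probes, 19715 carried 1 gene symbol, 0 several and 2469 none; 19695 matched a current gene by gene ID. Every probe was its own feature, tested where its detection p was under 0.05 on all 3 arrays of a group. The difference (atrazine less DMSO) was tested two-sided in limma (lmFit, eBayes), and p-values were adjusted by Benjamini-Hochberg across the 12969 probes tested. An exact test of 3 against 3 arrays cannot go below 0.1. The procedure was tested on simulated data.

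Where a group had no array with the probe above background, its fold is a bound. The dim side is then raised, on each array, to the lowest detected value if the probe lay under it. All values of the 10 listed genes are given; from the 4 further lists, the 4 genes of smallest p each, while ALAS1, CPOX, PPOX, TFR2, HEBP2, the undetected genes and single markers were named after their values were seen. Members and lists were chosen with earlier results of these data known. The number of arrays limits the precision. Alternatives were other background, offset, scaling, filter, variance and probe choices, the authors' processed values, a replicate block and leaving out each array.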

Additional observations from a re-analysis of the deposited data

How the results depend on the processing

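Falls of TFRC and NCOA4 kept their direction and passed the threshold under all 17 alternatives, and the rise of FTL did so under all but no scaling (0.40, adjusted p = 0.28). With any 1 array left out TFRC ran from -1.95 to -1.71, NCOA4 from -0.62 to -0.55 and FTL from 0.77 to 1.21. Of the other 19 probes followed, 8 turned direction under some scaling. Under median scaling SLC11A2 turned to -1.19, ACO1 to -0.99, STEAP3 to -0.61, SLC25A37 to -0.26 and HEBP1 to -0.10. Under housekeeping scaling SLC11A2 turned to -0.41, ACO1 to -0.22 and ABCB8 to 0.12. With no scaling SLC11A2 turned to -1.90, ACO1 to -1.71, STEAP3 to -1.32, SLC25A37 to -0.97, FLVCR1 to -0.44, HEBP1 to -0.81 and NR1D1 to -0.11. These scalings differ by a constant per array, so their reversals are not separate evidence. Passing or failing with no scaling rests on an SE of 0.355 that the listed genes' probes shared.

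Among all tested probes, median scaling gave 1979 higher and 8880 lower, and no scaling 338 and 10009. Detection p under 0.01 on all arrays, which tests fewer probes, gave 3985 calls, 2103 higher and 1882 lower. Among the listed genes' probes, median scaling called 6 (5 lower), no scaling 5 (0 higher, 5 lower) and no detection filter 5 (3 higher, 2 of them STEAP3 probes). Leaving out 1 array called 3 to 4, with 1 to 2 higher and 2 lower: ACO1 joined without DMSO replicate 2 and STEAP3 (ILMN_1761577) without atrazine replicate 3, the array on which it was undetected and lowest. Among the 4 further lists, no scaling gave 1 higher and 32 lower, median scaling 29 lower, and the stricter detection 13 calls, 5 higher and 8 lower; leaving out 1 array gave 21 to 26 calls.

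Same-numbered arrays deviated in opposite directions (correlations of -0.17, -0.44 and -0.29 across probes). No array's deviations correlated best with those of its own number. Deviations of only 3 arrays per group, with atrazine replicate 2 apart, cannot decide whether the numbers pair the samples. With the replicate number as a block, 7598 probes were called, 3169 higher and 4429 lower. The block left the calls of the listed genes as they were. In the 4 further lists it gave 21 calls in place of 24 (9 higher, 12 lower), ending that of CISD2 (-0.31, adjusted p = 0.073) among others.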
